A study of Mus musculus with 12 samples.

Results

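The brains of mice given both chronic stress and krill oil (MS_O) were compared with those of mice given neither (C_W), to see what still differed from the unstressed water group when both treatments were given. The comparison used 6 of the 12 samples of the study, 3 C_W mice and 3 MS_O mice, chosen by their group labels. Of the 55385 genes listed, it covered the 21393 whose FPKM averaged 0.1 or more in the 12 libraries. FPKM is the number of fragments per kilobase of transcript, scaled to the mapped fragments of a library.

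All animals were male C57BL/6J mice obtained at 8 weeks of age. MS_O mice went through chronic unpredictable mild stress (CUMS) for 4 weeks and received krill oil by gavage at 200 mg/kg per day for 5 weeks. C_W mice were not stressed and received the same volume of water, so the control gavage held no other oil and an effect of krill oil could not be told apart from that of any oil. The remaining groups, C_O (krill oil without stress) and MS_W (stress with water), entered the fit and are given for placement. Each library came from the perfused whole brain of 1 mouse and carries its group and mouse number, such as MS_O13. The 3 mice per group were drawn from larger groups, so the values describe these mice.

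CUMS exposes rodents to changing mild stressors and is widely used as a model of depression-like behavior. Stress raises glucocorticoids, which act on brain gene expression through their receptors. Krill oil supplies long-chain n-3 polyunsaturated fatty acids, largely bound to phospholipids, and such fatty acids are built into neuronal membranes. A whole-brain library mixes many regions, so the level of a gene that marks a region moves with the share of that region in the sample as well as with its expression there. Fewer cells of a type and less RNA per cell cannot be told apart in these bulk libraries.

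The 3 MS_O libraries were not alike. Over the tested genes, the correlation of log2(FPKM + 1) was between 0.983 and 0.984 among the C_W libraries and 0.986 between MS_O46 and MS_O78. MS_O13 correlated at 0.982 to 0.985 with the C_W libraries but at 0.970 with MS_O46 and 0.973 with MS_O78. Its total of 72601163 estimated counts lay within the C_W range of 69768244 to 75678721, whereas MS_O46 and MS_O78 had 56651025 and 57053930. Results are therefore also given without MS_O13, and the part of depth in them was not tested. Outside this comparison, C_O72 and MS_W95 stood apart from all other libraries and widened the spread that the fit estimates from the 4 groups.

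The tissue label was checked against markers of brain regions. Neuronal markers were abundant in all 6 libraries, for example Snap25 at 252 to 421 FPKM. Several markers that define the hindbrain and cerebellum were at or near 0 in them. The 11 hindbrain genes summed to 0.0424 to 0.297 FPKM, against 94.2 in C_O72 and 33.6 in MS_W95. Gabra6, a GABA receptor subunit of cerebellar granule cells, was at most 0.0467 FPKM in the 6 libraries, compared with 23.9 in C_O72 and 91.3 in MS_W95. The cerebellar markers Pcp2, Cbln3, En2 and Crtam were also at most 0.262 FPKM, while Cbln1, which other regions express too, was at 3.81 to 14.0 FPKM. Zic1 was at 3.33 to 11.5 FPKM and Ppp1r17 at up to 2.68 FPKM. The 11 cerebellar genes summed to 17.4 to 35.3 FPKM, against 336 in C_O72 and 1151 in MS_W95. The 6 libraries are labelled as whole brain, but RNA of the hindbrain markers and of several cerebellar markers was nearly absent from them. Whether this tissue was missing from the samples was not tested.

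A gene encoding the microtubule-associated protein tau, Mapt (ENSMUSG00000018411), was the single gene that passed an adjusted p of 0.05 in the MS_O vs. C_W comparison. It fell in MS_O. Its FPKM was 64.2, 96.7 and 60.3 in C_W1, C_W64 and C_W70, and 10.4, 11.8 and 10.9 in MS_O13, MS_O46 and MS_O78. The groups did not overlap, and the 3 MS_O values lay close together. The mean was 73.8 ± 20.0 in C_W and 11.0 ± 0.72 in MS_O (SD, n = 3), a 6.69-fold lower mean. The log2 fold change (log2FC), here the difference between group means of log2(FPKM + 1), was -2.61 with a standard error (SE) of 0.178. Its Benjamini-Hochberg adjusted p over all tested genes was 0.000615 by limma. Without MS_O13 the log2FC was -2.56 with an adjusted p of 0.00939.

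The low Mapt level was seen in MS_O and in no other group. The C_O libraries held 71.9, 66.9 and 54.0 FPKM, and the MS_W libraries held 62.5, 52.4 and 64.4 FPKM. The difference between MS_O and MS_W was -2.33 (SE 0.178, limma adjusted p = 0.00184). The difference of the stress effects with and without krill oil was -2.16 (SE 0.252), with a limma adjusted p of 0.106, above the threshold. Mapt lies on mm10 chr11:104231390-104332090, on the plus strand. Its neighbor Kansl1, named after its values were seen, was at 12.4 to 13.4 FPKM in C_W and 12 to 14.3 FPKM in MS_O. Gm11659, which overlaps Mapt on the other strand, was at most 0.0975 FPKM in these libraries. A fit restricted to the 6 libraries compared gave an adjusted p of 0.105 for Mapt, and a linear model with a library size covariate gave 0.633, and the adjusted p over all alternatives lay between 1.74e-33 (DESeq2) and 0.633.

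**Figure D1:**
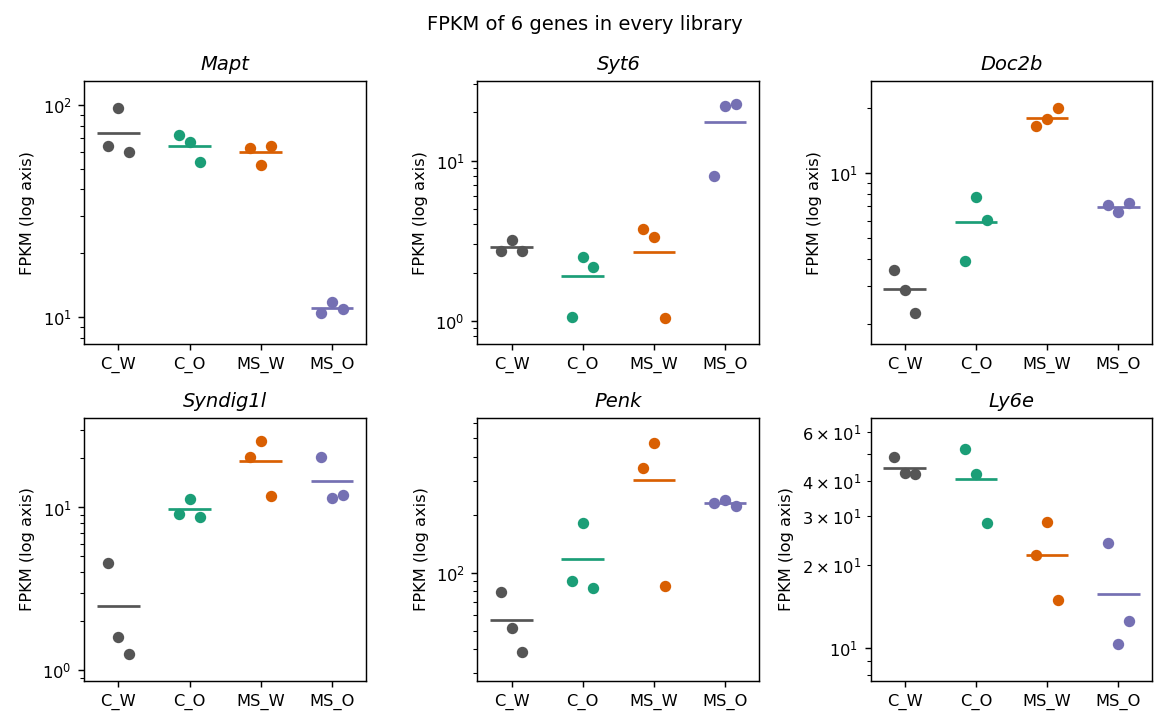
FPKM of Mapt, Syt6, Doc2b, Syndig1l, Penk and Ly6e on log axes in the 12 libraries, with points for single mice and lines for group means of 3 mice. Mapt lies at 10.4 to 11.8 in MS_O and at 52.4 to 96.7 in the 9 other libraries.

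No gene was higher in MS_O at an adjusted p under 0.05 by limma, and Mapt was 0.00467% of the 21393 tested genes. The edgeR quasi-likelihood test on the estimated counts also gave 0 higher and 1 lower gene, and DESeq2 gave 25 higher and 10 lower genes. An unadjusted p under 0.05 was found for 1560 genes (7.29%), of which 1010 were higher and 550 lower in MS_O. DEGs were then called with the thresholds of the study, an unadjusted p below 0.05 and a log2 fold change beyond 1 in either direction. Here the p was that of limma and the fold change was the ratio of group mean FPKM. There were 449 higher DEGs (2.1%) and 217 lower DEGs (1.01%), and with the fold change taken from log2(FPKM + 1) there were 72 and 46. The number of genes whose C_W and MS_O libraries did not overlap was 2399 for higher (11.2%) and 1464 for lower genes (6.84%). Of the 666 DEGs, 62.9% had a mean FPKM below 1, compared with 36.3% of all tested genes.

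These counts depended on scaling and on single libraries. With libraries centred on their medians, 268 DEGs were higher and 372 lower, and after quantile normalization 324 were higher and 306 lower. Genes without overlap were then 1451 higher and 2549 lower with centred libraries, and 1804 higher and 2015 lower after quantile normalization. Without MS_O13, there were 907 higher and 472 lower DEGs, and 18 genes passed the adjusted threshold. With C_O72 and MS_W95 also left out, an alternative chosen after seeing the data, 2200 genes passed it, 1366 higher and 834 lower. Of the 666 DEGs, 494 had their MS_O13 value nearer to the C_W mean than the values of both other MS_O mice.

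**Figure D2:**
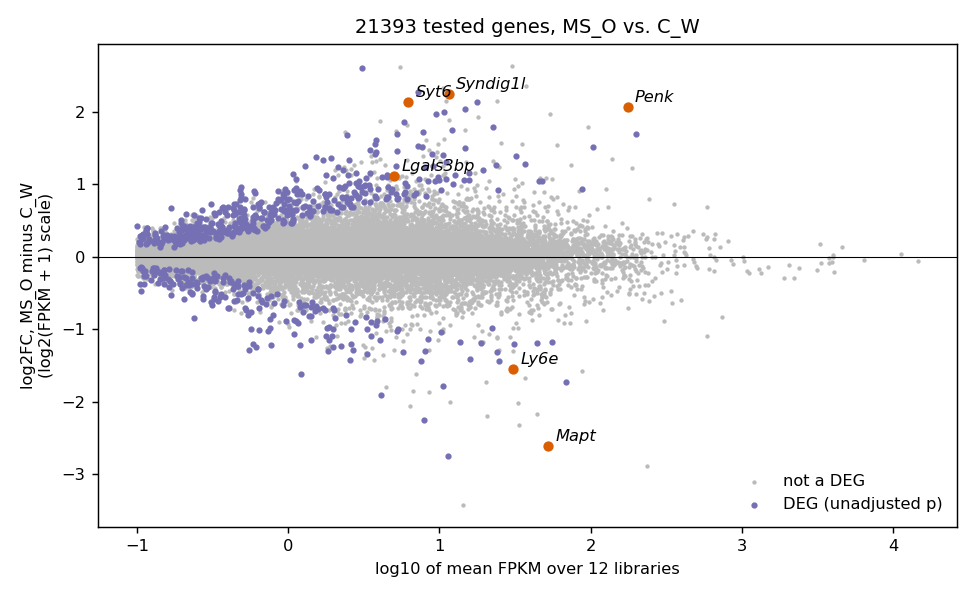
The log2FC of MS_O minus C_W on the log2(FPKM + 1) scale for the 21393 tested genes against the log10 of mean FPKM over 12 libraries, with the 666 DEGs in purple and 6 named genes in orange. Mapt lies at -2.61 and most DEGs lie at low mean FPKM.

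The genes that follow had adjusted p values of 0.603 or more by limma and are described by their values. Among higher genes without overlap whose FPKM averaged 1 or more, the smallest unadjusted p belonged to Lgals3bp, which encodes a secreted galectin-3 binding glycoprotein. Lgals3bp was at 3.62, 2.46 and 2.55 FPKM in C_W and 5.89, 7.27 and 9.03 FPKM in MS_O. Each MS_O mouse lay above each C_W mouse, and the log2FC was 1.11 (SE 0.178). The C_O libraries, at 4.44 to 6.54 FPKM, also lay above C_W.

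Syt6, a member of the synaptotagmin family of membrane trafficking proteins, was at 2.72, 3.19 and 2.73 FPKM in C_W and at 8.01, 21.9 and 22.4 FPKM in MS_O. All 3 MS_O libraries lay above the other 9, which ranged from 1.04 to 3.72 FPKM. The log2FC was 2.13 (SE 0.406), and the unadjusted p for MS_O against MS_W was 0.000193 (adjusted p = 0.230 by limma). Without MS_O13 the Syt6 log2FC was 2.58, past the limma adjusted threshold at 0.0487, in a range of 0.00224 to 1 over all alternatives.

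Other higher genes of this kind were Arl15, which encodes a small GTPase of the ARF-like family, and Klhl13, an adaptor of a cullin ubiquitin ligase. Arl15 was at 2.43 to 2.85 FPKM in C_W and 5.11 to 8.56 FPKM in MS_O. Klhl13 was at 3.74 to 4.98 FPKM in C_W and 10.8 to 15.8 FPKM in MS_O, and the MS_W libraries held 10.2 to 21.9 FPKM. The largest fold among them was that of Gm10233, at 0.445 to 0.651 FPKM in C_W and 5.63 to 10.9 FPKM in MS_O, but C_O72 also held 5.52 FPKM. Gm10282, Gm37397 and Smim27 had log2FC of 0.75, 0.84 and 0.65.

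After Mapt, the lower gene with the smallest unadjusted p was Ly6e, which encodes a GPI-anchored protein of the Ly6 family. Ly6e was at 49.0, 42.8 and 42.3 FPKM in C_W and 24, 10.3 and 12.5 FPKM in MS_O. The groups did not overlap, the log2FC was -1.55 (SE 0.321), and MS_O13 lay nearest to C_W. MS_W libraries were at 14.9 to 28.4 FPKM.

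Smarca2, the BRM ATPase of SWI/SNF chromatin remodelling complexes, was at 12.8, 14.2 and 16.4 FPKM in C_W and 9.29, 7.53 and 6.94 FPKM in MS_O. Its MS_O values lay below all 9 other libraries, of which the lowest was C_O72 at 12 FPKM. Hook1, which links cargo to microtubule motors, was at 5.09 to 6.50 FPKM in C_W and 2.14 to 3.17 FPKM in MS_O. Cipc, a repressor that binds the CLOCK protein, was at 20.5, 11.7 and 21.4 FPKM in C_W and 1.93, 6.28 and 6.12 FPKM in MS_O. All C_O libraries held 6.69 to 7.01 FPKM, and MS_W31, MS_W75 and MS_W95 held 22, 7.56 and 7.55 FPKM. Parm1 had a smaller difference of -0.63. The predicted genes Gm21586, Gm30970 and Gm42738 had log2FC of -1.61, -0.47 and -0.69.

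The most abundant DEGs were Pcp4l1, Penk and Gad1 among the higher genes. Pcp4l1, a relative of a calmodulin-binding protein, was at 150, 132 and 50.4 FPKM in C_W and 161, 497 and 428 FPKM in MS_O, so MS_O13 lay near C_W1. Gad1, which makes GABA, was at 86.2, 75.4 and 48.6 FPKM in C_W and 67.7, 198 and 167 FPKM in MS_O, and these groups overlapped through MS_O13. Among the lower DEGs the highest mean FPKM over the 6 libraries compared was that of Dkk3, Fxyd7 and Adcy1. Dkk3, a secreted protein of the dickkopf family, was at 101, 135 and 149 FPKM in C_W and 102, 18.0 and 28.4 FPKM in MS_O. Fxyd7, a regulator of the sodium pump, was at 81.7 to 88.8 FPKM in C_W and 67.7, 22.4 and 33.0 FPKM in MS_O. Adcy1, a calcium-stimulated adenylyl cyclase, was at 50.0 to 77.0 FPKM in C_W and 44.9, 19.6 and 21.3 FPKM in MS_O.

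Genes that mark the striatum had the highest median difference of the region and cell type lists with all 3 MS_O mice, but not without MS_O13. The striatum is the input nucleus of the basal ganglia, and its projection neurons carry dopamine receptors and neuropeptides. All 12 listed genes had a log2FC above 0, with a median of 1.73 (0.04 over all tested genes) and a range of 0.62 to 2.32. In 11 of the 12 the libraries did not overlap, beside 11.2% of all tested genes, and 6 were higher DEGs, beside 2.1%. None passed the adjusted threshold by limma or edgeR. DESeq2 called Syndig1l (adjusted p = 0.00125), limma with array weights called 5 of the 12 and limma in the 9 libraries without C_O72, MS_W95 and MS_O13 called 8, all higher. Over all alternatives the adjusted p of Syndig1l lay between 0.00125 and 1 and that of Penk between 0.0202 and 1. Without MS_O13 the median was 1.59, below the 1.89 of the olfactory bulb list.

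The promoters of 3 of these genes are shown, with capitals for TGACG or CGTCA, the half-site of the cAMP response element on either strand. Gpr6 and Tac1 were the only listed genes with a half-site in a window, and Drd2 is an example without. The choice did not follow the DEG calls. Gpr6 was not a DEG, and Rgs9, a higher DEG with a window and no half-site, is not shown. Windows from RefSeq (build GRCm38.p6) run from 250 bases before to 50 bases after the start of transcription, in the direction of the gene. They lie at chr10:41072241-41072540 (minus strand) for Gpr6, chr6:7554811-7555110 (plus strand) for Tac1 and chr9:49340153-49340452 (plus strand) for Drd2.
Gpr6: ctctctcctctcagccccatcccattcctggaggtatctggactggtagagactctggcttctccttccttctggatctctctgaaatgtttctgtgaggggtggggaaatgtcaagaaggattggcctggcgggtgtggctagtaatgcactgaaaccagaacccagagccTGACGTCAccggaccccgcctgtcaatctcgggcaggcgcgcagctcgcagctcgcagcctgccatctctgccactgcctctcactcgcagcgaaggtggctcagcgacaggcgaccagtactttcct
Tac1: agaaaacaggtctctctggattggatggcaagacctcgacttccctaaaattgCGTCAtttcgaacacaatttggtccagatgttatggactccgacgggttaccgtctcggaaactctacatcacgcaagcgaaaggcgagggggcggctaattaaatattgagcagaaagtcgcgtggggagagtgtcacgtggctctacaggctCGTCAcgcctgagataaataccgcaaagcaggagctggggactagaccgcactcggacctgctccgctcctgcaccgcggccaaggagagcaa
Drd2: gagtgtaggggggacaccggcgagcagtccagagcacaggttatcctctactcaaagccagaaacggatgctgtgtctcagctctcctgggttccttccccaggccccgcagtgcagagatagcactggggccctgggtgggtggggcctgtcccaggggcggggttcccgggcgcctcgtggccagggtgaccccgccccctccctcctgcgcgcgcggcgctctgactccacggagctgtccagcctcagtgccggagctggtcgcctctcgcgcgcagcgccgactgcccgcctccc
The Gpr6 window held both orientations of the half-site, overlapping as the full palindrome, and the Tac1 window held 2 separate half-sites. The Drd2 window held none of these letters. Of the 12 striatum genes 7 had a window and 2 of them held a half-site, while 20.8% of all 32817 windows did. A GC box (GGGCGG or CCGCCC) was found for 5 of the 7 genes and in 35.6% of all windows. Drd1 and Pde10a had 2 windows each, so these counts of genes and shares of windows are unlike measures. These matches describe letters in the windows and show no binding.

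Drd2, the dopamine receptor of indirect-pathway neurons, was at 4.35, 0.602 and 1.87 FPKM in C_W and 21.2, 7.79 and 7.13 FPKM in MS_O. Adora2a, the adenosine receptor of the same neurons, was at 3.97, 0.764 and 1.69 FPKM in C_W and 20.2, 12.6 and 9.22 FPKM in MS_O. Drd1, the dopamine receptor of direct-pathway neurons, was at 3.85, 2.51 and 2.85 FPKM in C_W and 15.7, 9.74 and 6.69 FPKM in MS_O. MS_O13 had the highest level of all 3 receptors, and C_W1 the highest among the controls.

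Penk, the precursor of enkephalins, was at 79.1, 51.7 and 38.8 FPKM in C_W and 230, 237 and 221 FPKM in MS_O, with a log2FC of 2.06 (SE 0.555). Tac1, the precursor of substance P, was at 4.73, 2.65 and 4.83 FPKM in C_W and 16, 17 and 13.8 FPKM in MS_O. Penk and Tac1 varied less among the MS_O mice than the receptors did. Syndig1l, a transmembrane protein enriched in the striatum, was at 4.56, 1.61 and 1.25 FPKM in C_W and 20.4, 11.5 and 12 FPKM in MS_O, with a log2FC of 2.24 (SE 0.368). Ppp1r1b, the dopamine-regulated phosphatase inhibitor DARPP-32, was at 30.0 to 59.9 FPKM in C_W and 76.8 to 192 FPKM in MS_O. Rasd2 was the striatum gene with overlapping groups, at 26.1 to 37.2 FPKM in C_W and 33.9 to 76.8 FPKM in MS_O.

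**Figure D3:**
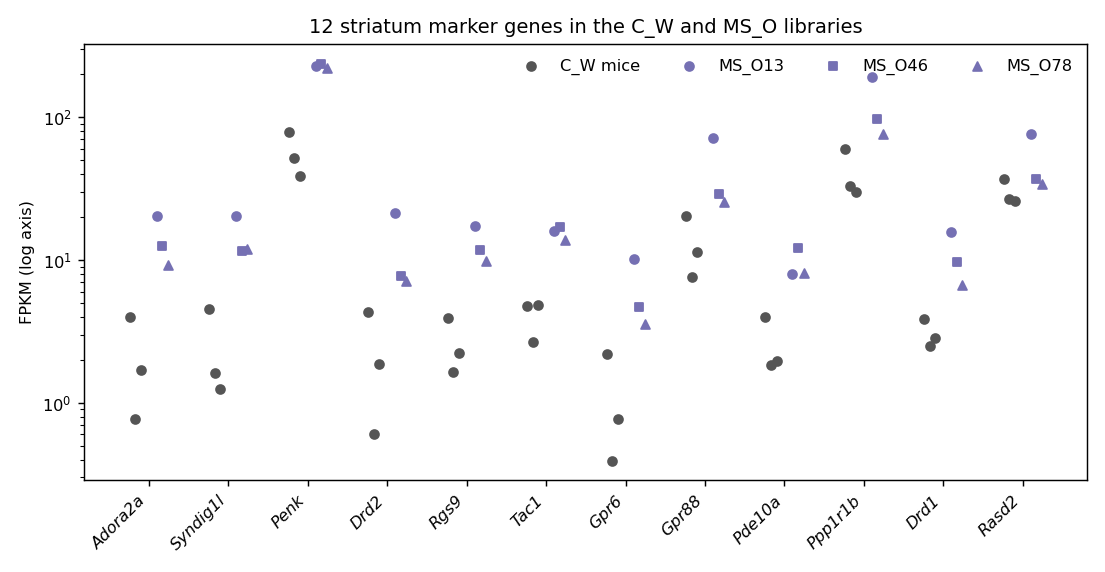
FPKM on a log axis of the 12 striatum genes, ordered by log2FC, in the 3 C_W mice (grey) and in MS_O13, MS_O46 and MS_O78 (purple). The MS_O points lie above the C_W points for all genes except Rasd2, whose groups overlap.

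Higher striatal levels were also seen in libraries of MS_W and C_O, but not in all of them. Syndig1l was at 11.7 to 25.5 FPKM in MS_W and 8.80 to 11.3 FPKM in C_O, so all 9 libraries outside C_W lay above C_W. The median log2FC of the striatum list was 1.81 for MS_W against C_W and 0.91 for C_O against C_W. Against MS_W the MS_O median was -0.06. The summed FPKM of the list was 124 to 228 in C_W and 428 to 699 in MS_O. It was 808 and 1141 in MS_W31 and MS_W75 and 335 and 518 in C_O15 and C_O30, whereas MS_W95 (177) and C_O72 (155) lay inside the C_W range. These comparisons share the C_W or MS_O libraries and are given side by side only.

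Markers of other regions and tissues also differed between these libraries, and their part in the differences above was not tested. The cortex list had a median log2FC of -0.93, with 7 of its 11 genes lower without overlap (6.84% of all tested genes), no DEG, and the exception of Tbr1 at 0.24. Fezf2, a transcription factor of deep-layer projection neurons, was at 10.5, 14.4 and 15.0 FPKM in C_W and 8.85, 0.597 and 1.48 FPKM in MS_O. Neurod6, a transcription factor of excitatory cortical neurons, was at 32.6 to 41.8 FPKM in C_W and 31, 4.95 and 6.99 FPKM in MS_O. In both genes MS_O13 lay just below C_W, and the median without MS_O13 was -1.35. The summed FPKM of the cortex list was 1364 to 1543 in C_W, 1347 in MS_O13, 493 in MS_O46 and 735 in MS_O78.

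Olfactory bulb markers had a median log2FC of 1.26, but 1 of 12 was higher without overlap (11.2% of all tested genes) and 1 was a higher DEG (2.1%). Cdhr1, a cadherin of mitral and tufted cells, was at 17.7, 24.5 and 1.75 FPKM in C_W and 14.1, 86.5 and 83.7 FPKM in MS_O. Th, which makes the dopamine precursor and is expressed in bulb and midbrain neurons, was at 11.1, 12.8 and 2.09 FPKM in C_W and 10.4, 56.6 and 64.9 FPKM in MS_O. MS_O13 lay inside the C_W range for both, while MS_O46 and MS_O78 lay far above it. The summed FPKM of the list was 37.4 to 177 in C_W, 120 in MS_O13, 543 in MS_O46 and 529 in MS_O78. Without MS_O13 the median was 1.89.

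Meningeal markers had a median of 0.64, with 5 of 12 higher DEGs (2.1% of all tested genes) and 3 higher without overlap (11.2%). Bgn, a matrix proteoglycan, was at 1.96 to 2.70 FPKM in C_W and 2.75, 5.71 and 7.01 FPKM in MS_O. Aldh1a2, which makes retinoic acid, was at 1.67 to 2.07 FPKM in C_W and 3.06, 5.93 and 7.77 FPKM in MS_O. Blood genes had a median of -2.02, with 5 of 7 lower without overlap (6.84% of all tested genes) and no DEG. Hbb-bs, an adult beta globin, was at 67.1, 72.1 and 54.8 FPKM in C_W and 5.92, 17.8 and 22.3 FPKM in MS_O. The globin genes are near-identical copies among which reads can be split, and their summed list level was 170 to 215 FPKM in C_W and 18.0 to 69.8 FPKM in MS_O. The brains were perfused before collection.

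Markers of glia and vessels differed little. None of the tested oligodendrocyte (12), oligodendrocyte precursor (7), astrocyte (12), microglia (13) and endothelium (12) genes was a DEG, and the list medians were -0.16, 0.02, 0.09, 0.08 and 0.05. All 12 oligodendrocyte genes had a log2FC below 0, down to -0.39, with overlap in each. The astrocyte gene Gfap was at 29.9, 20.2 and 25.4 FPKM in C_W and 29.0, 58.7 and 60.8 FPKM in MS_O, so it was higher in MS_O46 and MS_O78 only.

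Of the 10 neuron markers, whose median was -0.12, Gad1 was a higher DEG (2.1% of all tested genes) and 3 were lower without overlap (6.84%). Snap25, a SNARE protein of synaptic vesicle fusion, was at 413, 421 and 410 FPKM in C_W and 386, 252 and 272 FPKM in MS_O. Slc17a7, a vesicular glutamate transporter from the cortex list, was at 270, 290 and 254 FPKM in C_W and 164, 205 and 239 FPKM in MS_O. Nefm, a neurofilament subunit, was at 34.3 to 47.2 FPKM in C_W and 22.8 to 30.7 FPKM in MS_O. Tubb3, Eno2, Stmn2, Rbfox3, Map2, Syt1 and Nefl had log2FC between -0.53 and 0.26, beside -2.61 for Mapt.

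**Figure D4:**
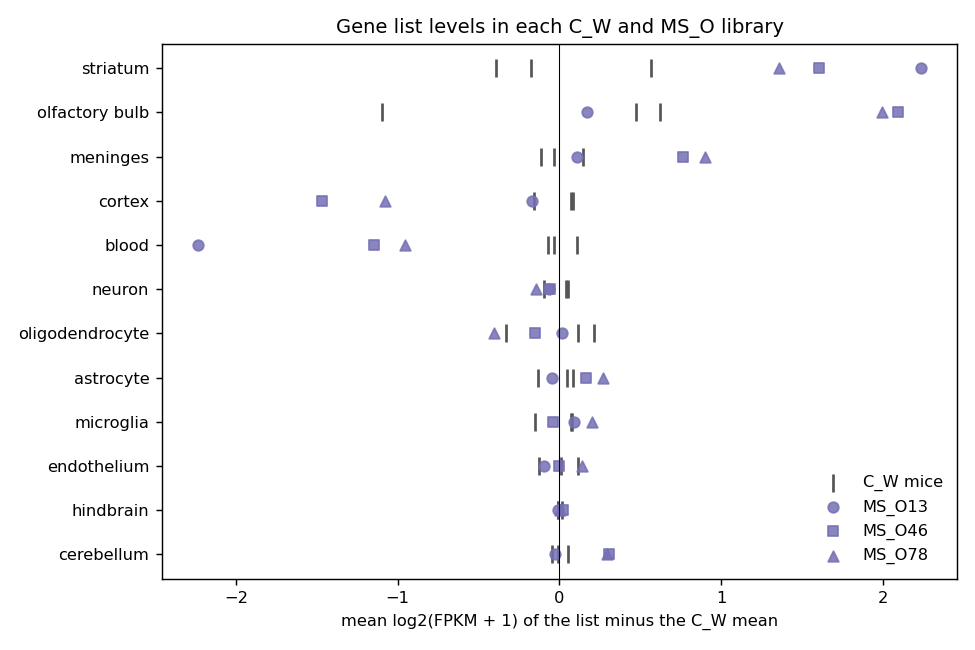
Mean log2(FPKM + 1) of the genes of 12 lists in each C_W (ticks) and MS_O (purple symbols) library, as the difference from the C_W mean. MS_O13 lies near C_W for the cortex, olfactory bulb and meninges lists but has the highest striatum and the lowest blood level.

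Neuropeptide genes were mixed. Of 25 tested, 5 were higher DEGs (Penk, Tac1, Trh, Cartpt and Nts) and Grp was a lower DEG, beside 2.1% and 1.01% of all tested genes, and the median was 0.31. Nts, the precursor of neurotensin, was at 0.507, 0.296 and 1.13 FPKM in C_W and 2.37, 6.25 and 7.15 FPKM in MS_O. Grp, the precursor of gastrin-releasing peptide, was at 2.65, 3.14 and 3.49 FPKM in C_W and 1.68, 0.117 and 0.519 FPKM in MS_O. Trh, the precursor of thyrotropin-releasing hormone, was at 7.44, 11.5 and 1.83 FPKM in C_W and 8.84, 37.4 and 53.0 FPKM in MS_O, with MS_O13 inside the C_W range.

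Among receptors for monoamines, 3 of 26 were higher DEGs (Drd2, Htr2c and Adra2a) and none was a lower DEG, with a median of 0.11 and beside 2.1% and 1.01% of all tested genes. Htr2c, a serotonin receptor, was at 1.72 to 3.15 FPKM in C_W and 3.97 to 6.72 FPKM in MS_O. Adra2a, an inhibitory noradrenaline receptor, was at 3.04, 2.58 and 0.918 FPKM in C_W and 3.89, 5.50 and 5.43 FPKM in MS_O. Of 29 neuropeptide receptors 2 were higher DEGs (2.1% of all tested genes), and of 34 glutamate and GABA receptors none was a DEG. Of 24 genes of synaptic vesicle release, Doc2b and Sv2c were higher DEGs (2.1% of all tested genes), 6 were lower without overlap (6.84%), and the median was -0.14.

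Genes of the stress hormone axis included no DEG. Of its 8 tested genes, 6 had a log2FC above 0, with a median of 0.26, and 3 were higher and 2 lower without overlap, beside 11.2% and 6.84% of all tested genes. Of 17 glucocorticoid-induced genes, Cdkn1a was a higher DEG (2.1% of all tested genes), Zbtb16 and Plin4 were lower DEGs (1.01%), and the median was -0.08. Zbtb16, a transcription factor, was at 3.93, 5.96 and 7.95 FPKM in C_W and 2.74, 2.02 and 1.81 FPKM in MS_O. Plin4, a lipid droplet protein, was at 2.99, 2.87 and 3.64 FPKM in C_W and 1.14, 0.592 and 0.620 FPKM in MS_O. Fkbp5, a chaperone that restrains the glucocorticoid receptor, was at 3.95 to 4.29 FPKM in C_W and 3.98 to 4.79 FPKM in MS_O. The receptor gene Nr3c1 was at 10.1 to 12.3 FPKM in C_W and 5.87 to 9.82 FPKM in MS_O (unadjusted p = 0.0505 by limma). Nr3c2, the mineralocorticoid receptor gene, was at 5.31, 5.38 and 3.36 FPKM in C_W and 5.84, 7.76 and 6.01 FPKM in MS_O, without overlap (unadjusted p = 0.0479 by limma). None of the 14 immediate early genes, which report neuronal activity, was a DEG.

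Genes of lipid handling, which bear on krill oil, differed little as groups. Of 28 genes for synthesis and uptake of polyunsaturated fatty acids, Fabp7 was a higher DEG (2.1% of all tested genes), none was a lower DEG, and the median was -0.02. Fabp7, a brain fatty acid binding protein of glia and neural progenitors, was at 9.98, 16.4 and 7.61 FPKM in C_W and 16.8, 46.2 and 79.5 FPKM in MS_O, with a log2FC of 1.79 (SE 0.561). MS_O13 barely exceeded C_W64. The desaturase genes Fads1 and Fads2 had log2FC of 0.07 and 0.28, with overlap. Fads3 was at 9.02, 9.5 and 10.4 FPKM in C_W and 9.43, 4.3 and 5.79 FPKM in MS_O, with overlap through MS_O13. Its log2FC was -0.56 (unadjusted p = 0.0203 by limma), and -0.82 without MS_O13. No DEG was found among 36 sphingolipid, 38 glycerophospholipid and 22 cholesterol synthesis genes, with medians of 0.00, 0.04 and -0.05, or among 25 antioxidant genes, with a median of 0.10.

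The genes named in earlier work on these data for stress with water were placed in the 4 groups. They were chosen for MS_W against C_W, so both groups took part in the choice. Their MS_W levels, and their counts against the same C_W libraries, are a description. Of the 11 genes, 3 were higher DEGs in MS_O against C_W (Doc2b, Cartpt and Penk), 5 were higher and 1 was lower without overlap, and the median was 0.57. Of all tested genes 2.1% were higher DEGs, and 11.2% were higher and 6.84% lower without overlap.

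Doc2b, a calcium sensor of vesicle fusion, was at 3.54, 2.87 and 2.24 FPKM in C_W, 16.4, 17.7 and 19.9 FPKM in MS_W and 7.07, 6.59 and 7.25 FPKM in MS_O. MS_O thus lay above C_W and below MS_W, without overlap with either. Its log2FC was 1.05 (SE 0.196) for MS_O against C_W and -1.25 for MS_O against MS_W, with limma adjusted p of 0.678 and 0.115. The C_O libraries, at 3.91 to 7.72 FPKM, overlapped MS_O.

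Penk had the smallest log2FC between the stressed groups, at -0.07 (SE 0.555) for MS_O against MS_W. The MS_W mice were unlike, at 349, 468 and 84.9 FPKM in MS_W31, MS_W75 and MS_W95. The MS_O mice lay between these values, at 221 to 237 FPKM. Baiap3, which acts in dense-core vesicle release, had a mean of 1.19 FPKM in C_W, 17.1 in MS_W and 2.77 in MS_O. Dlk1, a Notch-related ligand, had means of 0.187, 9.28 and 0.424 FPKM in C_W, MS_W and MS_O. The vasopressin gene Avp, whose means were 0.145, 30.6 and 1.5 FPKM, was low in MS_W95 (0.185 FPKM). The oxytocin gene Oxt was at 0.272 to 0.721 FPKM in MS_O and at most 0.353 FPKM in C_W. Markers of the hypothalamus, where Avp and Oxt are made, had a median of 0.05 for MS_O against C_W and 1.01 for MS_W against C_W.

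**Figure D5:**
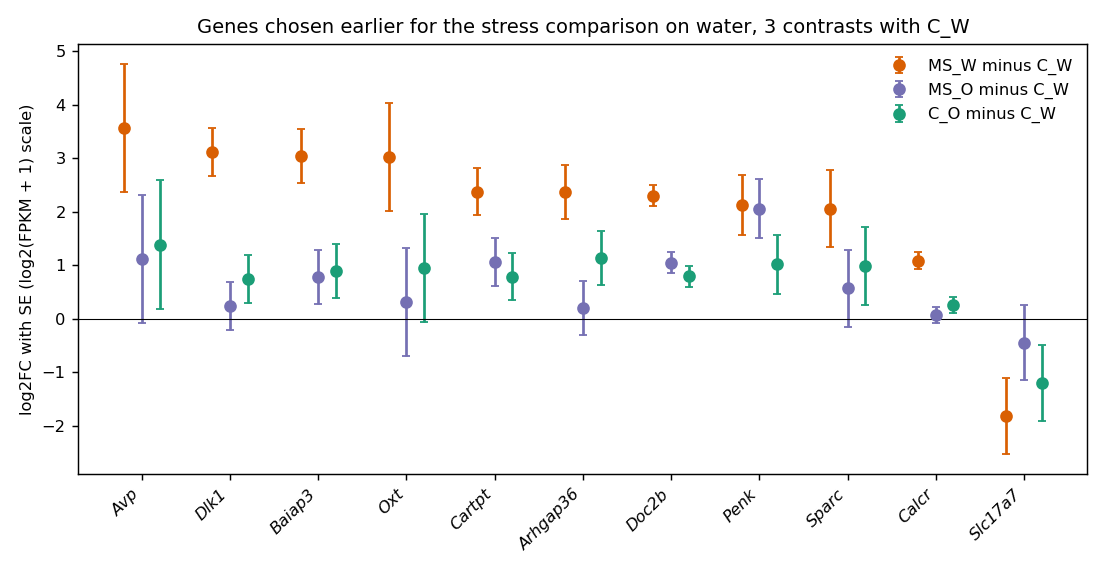
The log2FC with its SE of 11 genes chosen earlier for the MS_W vs. C_W comparison, for MS_W, MS_O and C_O each against the same C_W libraries. Penk is at 2.13 in MS_W and 2.06 in MS_O, whereas Dlk1 is at 3.12 and 0.24.

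Of 12 genes named earlier for krill oil, Mapt was a lower DEG (1.01% of all tested genes), Gcnt1 was a higher DEG (2.1%), and the median was -0.08. Without overlap, 1 was higher and 4 were lower, beside 11.2% and 6.84% of all tested genes. These genes too were named from these data, and the paper named Gcnt1, Plekha2, Sgpp2 and B3galt1 from MS_W against MS_O. The counts are therefore a description and no independent support. Gcnt1, a glycosyltransferase, was at 1.42, 1.5 and 0.378 FPKM in C_W and 0.903, 4.74 and 4.53 FPKM in MS_O, with overlap through MS_O13. Nek7, a kinase of the inflammasome, was at 5.57 to 6.58 FPKM in C_W, 0.874 to 1.56 FPKM in C_O and 0.913, 5.06 and 5.37 FPKM in MS_O. A low Nek7 level as in C_O was seen in MS_O13 alone. Ak4, an adenylate kinase, was at 1.33 to 2.02 FPKM in C_W and 0.649 to 1.57 FPKM in MS_O, compared with 9.30 to 12.2 FPKM in C_O. The MS_W libraries were unlike, at 1.53, 6.68 and 10.2 FPKM in MS_W31, MS_W75 and MS_W95.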

How the data were processed

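RNA from 12 brains in 4 groups was measured, and the 3 C_W and 3 MS_O libraries were compared. The authors trimmed reads with cutadapt 1.9, aligned them with HISAT2 2.0.4 to mm10 and assembled transcripts with StringTie 1.3.4d (tools and versions per the labels), from a poly(A), strand-specific library. The paper names StringTie and Ballgown for estimating expression levels, and StringTie for calculating FPKM. In the FPKM values deposited by the authors, a gene without an estimate is listed at 0.0001. The estimated count values deposited by the authors derive from coverage, were used rounded, and served for depth and for edgeR 4.0.16 and DESeq2 1.42.0 as alternatives.

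Here log2(FPKM + 1) was fitted in all 4 groups and 12 libraries with limma 3.58.1 under R 4.3.3, using lmFit and a trended eBayes, for genes averaging 0.1 FPKM or more. The p values were adjusted by Benjamini and Hochberg over all tested genes. A fold change on this scale understates that of low genes. The ratio of group means, with a mean of 0 set to 0.0001, and the unadjusted limma p entered the DEG criteria. An exact permutation test of 3 mice against 3 cannot go below 0.1 and was not used. The test was checked on simulated data. Those data had independent noise and no outlying libraries, so the check cannot show how the test performs on these libraries. Start and end were identical to GENCODE for 94.3% of genes, and 118 names were not unique. The most abundant gene of a name was used.

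The members and gene lists were chosen with earlier results of these data known. Named genes were up to 10 higher and 10 lower genes past the adjusted threshold without overlap, filled by the smallest unadjusted p at a mean FPKM of at least 1. Added were the 3 members of each list with the smallest p, the 3 most abundant DEGs in each direction, the genes named earlier, the neuron markers, and the 3 DEGs with the widest range within a group. Other list members were chosen for display after their values were seen. Alternatives were other pseudocounts (0.1, 0.01), filters, scalings, fits and left-out libraries. The library size covariate was the sum of log2(FPKM + 1) values of a library up to the upper quartile of its detected genes. It was not the total of estimated counts. Python 3.11.15, pandas 2.3.3 and matplotlib 3.10.9 made tables and figures. The values of 1 lower gene that met the naming rule are not reported here. Columns with the authors' own comparisons were not used.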

Additional observations from a re-analysis of the deposited data

How the results depend on the processing

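Mapt was lower in MS_O under all 20 alternatives and passed the adjusted threshold in 18 of them, but not in the fit of 6 libraries (adjusted p = 0.105) nor in the linear model with library size (0.633). The 1 gene past the adjusted threshold became 5 without a filter, 0 in the fit of 6 libraries, 0 in the linear model with library size, 2 without C_O72 and MS_W95, 1113 with array weights, 35 with DESeq2, and 2200 in the 9 libraries without C_O72, MS_W95 and MS_O13 (chosen after seeing the data). Leaving out 1 library at a time gave 1 to 18. Higher DEGs (449) became 165 at a mean FPKM of at least 1, 268 with centred libraries, 219 in the linear model, 949 with array weights, 1227 in the 9 libraries and 72 with the fold change from log2(FPKM + 1). Lower DEGs (217) became 496 without a filter and 69, 372, 62, 419, 665 and 46 in the same order. Leaving out 1 library gave 209 to 907 higher and 120 to 472 lower DEGs, lowest for higher DEGs without MS_O46 (264 without MS_O78, 244 without C_W70) and lowest for lower DEGs without MS_O78 (126 without MS_O46), and highest without MS_O13. Genes without overlap (3863) were 5068 to 10023 with 1 library left out, since fewer libraries overlap less, and 6855 without C_W1. They were 10023 in the 9 libraries. In the linear model with library size, these log2FC reversed: Fads3 0.05, Slc6a3 -0.06, Gad1 -0.14, Igfbpl1 -0.02, Trbc2 0.07, Gcnt1 -0.21, Eomes -0.03 and Cdkn1a -0.20. The medians of the olfactory bulb and stress hormone axis lists reversed there too, both to -0.05. The cause was not tested, and this model gives 3 mice per group a further covariate. The other 57 named genes with an unadjusted p under 0.05 kept their direction under every alternative that could be run. No paired analysis was possible because the groups share no mouse numbers. With 3 mice per group, the spread between mice limits which differences can be detected.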

Other observations

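The summed FPKM of the choroid plexus list varied widely within groups, at 5.88 to 852 in C_W and 15.1 to 632 in MS_O. Of its 12 genes, Aqp1 was a higher DEG (2.1% of all tested genes) and the 1 higher gene without overlap (11.2%). Aqp1 was at 0.456 to 3.06 FPKM in C_W and 3.34 to 7.11 FPKM in MS_O. Ttr, the transthyretin gene of the choroid plexus, was at 827, 1.88 and 59.8 FPKM in C_W1, C_W64 and C_W70, and at 612, 6.29 and 4.83 FPKM in MS_O13, MS_O46 and MS_O78. Among the 6 libraries compared, several interferon-induced genes were highest in MS_O78. Ifi27l2a was at 17.8 FPKM there and at 0.563 to 2.65 FPKM in the 5 other libraries compared, Isg15 was at 7.84 FPKM against 1.08 to 2.98, and Bst2, which tethers enveloped virions, was at 9.45 FPKM against 2.50 to 4.11. Outside the comparison, C_O72 held Bst2 at 9.65 FPKM. All 15 tested genes of interferon response and antigen presentation had a log2FC above 0, with a median of 0.36, but none was a DEG. Ifi27l2a, which is not among these 15, was itself a higher DEG, with a log2FC of 1.44 (unadjusted p = 0.0449 by limma). Trbc2, a T cell receptor constant gene, was at 22.8 to 31.4 FPKM in C_W and 23.1 FPKM in MS_O13, but at 0.304 and 1.2 FPKM in MS_O46 and MS_O78.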
